A study of Homo sapiens with 2 samples.

Results

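The features described here are the small nuclear RNAs (snRNAs) and their copies in CLIP-seq libraries of hTrmt13 (TRMT13), the human relative of a yeast tRNA methyltransferase. They are all features that the count tables class as snRNA, 1913 of 741078 listed features, or of 61258 when piRNA features are set aside. They were grouped by name into RNU1, RNU2, RNU4, RNU5, RNU6, RNU7, RNU11, RNU12, RNU4ATAC, RNU6ATAC and other, and names with a P suffix or a bare U name were taken as copies. This gives 1872 copies and 20 genes in the named families, with 20 U1 variant genes (RNVU1) and RN7SK under other. The cells were MDA-MB-231, an established human breast carcinoma line, and the assay isolates a protein with its crosslinked RNA by an antibody. Per the labels' protocols, both libraries shared a dephosphorylation step and an Alkb step that takes off RNA modifications. There was 1 group with 2 replicates, and 0 control libraries were analysed here, so the values describe what was recovered and not an enrichment. Whether separate cultures were used is not in the labels, and the spread between the libraries may be technical.

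Spliceosomal snRNAs are short nuclear RNAs that, with proteins, form the particles that remove introns. U1 pairs with the 5′ splice site and U2 with the branch point. U6 arrives paired with U4 and bound to U5, then leaves U4 and takes the place of U1 at the 5′ splice site, while a loop of U5 contacts the exon ends. U11, U12, U4atac and U6atac take the same parts for a rare class of introns. The label "spliceosomal" holds for most but not all of the features: U7 acts in the 3′ end processing of histone pre-mRNA, and RN7SK (7SK RNA) holds back the elongation factor P-TEFb and is no splicing RNA. The human genome holds many copies of these genes, most of them pseudogenes, so a count at one of them can come from reads that match several places.

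The sequences that carry the results are printed from GENCODE release 29, matched to the features by Ensembl gene ID, with the positions of the count tables on hg19. A sequence was found for 1800 of the 1913 features, and 1772 of these had the listed length. The first is the most counted U1 gene, which shares its sequence with 6 other features described below. Capitals mark ACTTACCTG, the bases that pair with the 5′ splice site. RNU1-2 lies at chr1:17222475-17222638 on the plus strand.
RNU1-2: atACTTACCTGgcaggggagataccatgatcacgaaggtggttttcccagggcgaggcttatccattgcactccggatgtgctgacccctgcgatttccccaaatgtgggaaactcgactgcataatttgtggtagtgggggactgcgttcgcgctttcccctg

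The next pairs are the 2 highest features of the RNU2 family and of the RNU4 family, shown because their counts are compared with each other below and reads must be told apart by few bases. Capitals mark the bases that differ within a pair. RNU2-2P lies at chr11:62609091-62609281 and RNU2-59P at chr10:103124602-103124792, both on the minus strand. They differ at 14 of 191 positions (92.7% identity).
RNU2-2P: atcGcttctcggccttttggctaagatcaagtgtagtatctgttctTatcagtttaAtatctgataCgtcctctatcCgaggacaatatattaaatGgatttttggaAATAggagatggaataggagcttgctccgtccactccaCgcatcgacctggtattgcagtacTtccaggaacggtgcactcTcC
RNU2-59P: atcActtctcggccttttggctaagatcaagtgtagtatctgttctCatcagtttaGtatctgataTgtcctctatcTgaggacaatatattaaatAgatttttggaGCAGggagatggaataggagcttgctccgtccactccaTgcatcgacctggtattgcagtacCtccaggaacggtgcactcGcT

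RNU4-2 lies at chr12:120729566-120729706 and RNU4-1 at chr12:120730900-120731040, both on the minus strand. They differ at 4 of 141 positions, counted from the 5′ end of RNU4-2: T37C, A88G, A99C and T113C (97.2% identity).
RNU4-2: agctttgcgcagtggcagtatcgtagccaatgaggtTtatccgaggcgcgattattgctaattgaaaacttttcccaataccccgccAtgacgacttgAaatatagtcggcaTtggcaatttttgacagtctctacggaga
RNU4-1: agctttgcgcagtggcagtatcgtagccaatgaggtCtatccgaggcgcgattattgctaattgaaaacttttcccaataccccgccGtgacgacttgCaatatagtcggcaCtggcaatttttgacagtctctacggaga

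Total counts of the first mate (R1) were 27907799 for replicate 1 and 20590398 for replicate 2, while the second mate (R2) gave 11246823 and 8793089. Values are R1 counts unless stated, and CPM scales them to the R1 total of the library. A level of 3 counts is 0.107 CPM in replicate 1 and 0.146 CPM in replicate 2. Intervals cover the counting error of reads only. PCR reads without molecular identifiers are not independent molecules, so the intervals may be too narrow for molecules. Of the markers of the line, VIM stood at 24.4 ± 15.1 CPM and MSN at 11.4 ± 5.88, while CAV1, AXL and CD44 lay between 0.385 and 0.937 CPM (SD, n = 2). Of genes that the line is known to lack or hold low, ERBB2 stood at 6.92 CPM, CDH1 at 1.96, EPCAM at 1.01, ESR1 at 0.557 and PGR at 0.0971, and their median (1.01) lay above that of the 5 line markers (0.937). Of 4 genes of other cell types ALB had no count and the highest, RBFOX3, had 1.74 CPM, and the markers did not separate the line from these genes.

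snRNAs were a minor part of the recovered RNA. Replicate 1 had 17433 snRNA counts, or 0.0625% of the library (95% Clopper-Pearson interval 0.0615 to 0.0634), and replicate 2 had 15383, or 0.0747% (0.0735 to 0.0759). RN7SK alone held 4975 and 6977 of these counts. Without it the spliceosomal and U7 features held 12458 counts (0.0446%, interval 0.0439 to 0.0454) and 8406 counts (0.0408%, interval 0.0400 to 0.0417), a mean of 0.0427% ± 0.00270 (SD, n = 2). The share with RN7SK was higher in replicate 2 and the share without it was higher in replicate 1. RN7SK is listed a second time as misc_RNA, with the same counts, and reached 258.6 ± 113.5 CPM.

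Counts were held by few features. Of the 1913 features, 1363 (71.2%) had no R1 count in either library and 347 had 1 to 3 counts over both. A mean count of at least 10 was reached by 90 features (4.70%), against 30.5% of all features other than piRNA. Genes passed it far more often than copies: 19 of 20 genes and 63 of 1872 copies (3.37%). RNU6-8, a U6 gene with 10 and 9 counts, was the gene below the minimum. With RN7SK set aside, the 2 highest features held 41.3% ± 1.66 of the counts, the 6 highest 62.1% ± 1.87 and the 20 highest 77.1% ± 0.922 (SD, n = 2). RNU1-117P (16 and 4 counts) and RNU6-12P (12 and 8) lay just above the minimum, and RNU6-378P (14 and 5) and RNU6-8 just below it.

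The families stood in the order RNU2, RNU1, RNU6, RNU5, RNU4, U1 variants, RNU6ATAC, RNU7 and RNU4ATAC by CPM per kilobase of feature, summed over members. The plot of family levels shows both replicates. RNU2 reached 1053 ± 20.5 CPM per kilobase (SD, n = 2), RNU1 560 ± 11 and RNU6 414 ± 25.8. RNU5 followed at 265 ± 121 and RNU4 at 226 ± 23.8, and these neighbours do not differ beyond their spread. RNU6ATAC (46.05 ± 2.61) and RNU7 (37.4 ± 1.33) came next, and RNU4ATAC was lowest of the 9 at 8.29 ± 1.57. A family sum grows with the number of its copies, and RNU6 has 1322 members against 31 for RNU5.

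**Figure D1:**
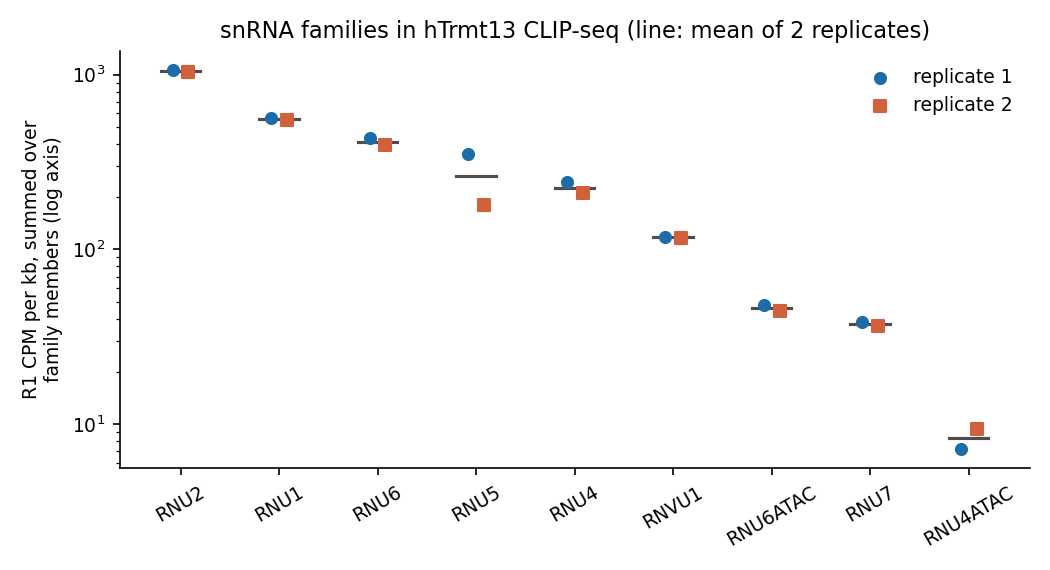
Level of each snRNA family in CPM per kilobase, summed over its members, on a log axis, with 1 point per replicate and a line at the mean. Replicates lie close together except for RNU5, whose level in replicate 2 (179) is about 0.5 of that in replicate 1 (351).

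U1 marks the 5′ end of an intron, and its family summed to 2595 counts and 1861 counts in the 2 replicates, 91.7 ± 1.84 CPM (SD, n = 2). RNU1-2 had 765 and 545 counts, RNU1-4 731 and 516, and the copy RNU1-27P 688 and 480. These 3 are 3 of 7 features whose 164-base sequences are identical, so no read within them can be given to 1 of the 7. The 7 together held 2291 and 1632 counts, 80.7 ± 2.00 CPM. The other 4 were low: RNU1-28P had 54 and 48 counts, RNVU1-18 29 and 18, RNU1-3 13 and 15, and RNU1-1 11 and 10. RNU1-1 and RNU1-3 are named as genes and RNU1-27P as a copy, so the names do not order the counts. The 3 high features lie on the plus strand of hg19 and the 4 low ones on the minus strand. The plus-strand members held 95.3% of the set's counts in replicate 1 and 94.4% in replicate 2, and 95.7% and 95.3% in the R2 tables. Among the other U1 variant genes, RNVU1-14 had 113 and 106 counts and RNVU1-9 118 and 83. The 20 variants summed to 19.3 ± 0.219 CPM, and 7 of them passed the minimum.

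U6, the catalytic RNA of the spliceosome, is the family with the most copies. It held 1270 and 858 counts (43.6 ± 2.71 CPM, SD, n = 2), of which 85.8% ± 1.24 lay in copies. The highest member was the copy RNU6-36P, with 98 and 50 counts. A set of 7 features with 1 identical sequence, RNU6-9 among them, held 246 and 152 counts, or 8.10 ± 1.01 CPM. On the plus strand, RNU6-9 had 53 and 28 counts, RNU6-2 45 and 25, RNU6-4P 41 and 27 and RNU6-6P 38 and 29. On the minus strand, RNU6-5P had 37 and 23, RNU6-1 16 and 14 and RNU6-3P 16 and 6. The plus-strand members held 72.0% and 71.7% of the set's counts, a smaller imbalance than in the U1 set. RNU6-7 had 49 and 32 counts on the plus strand, and RNU6-8, identical to it on the minus strand, had 10 and 9. RNU6-37P on the plus strand had 38 and 27 against 13 and 15 for its minus-strand twin RNU6-11P. Other identical sets did not show it: RNU6-17P on the minus strand had 16 and 9 counts and RNU6-18P on the plus strand 8 and 7. RNU6-12P and RNU6-13P on the plus strand had 12 and 8 and 11 and 9 counts, near the 9 and 9 of RNU6-32P on the minus strand. RNU6-771P on the minus strand had 6 and 1 and RNU6-1072P on the plus strand 2 and 3.

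**Figure D2:**
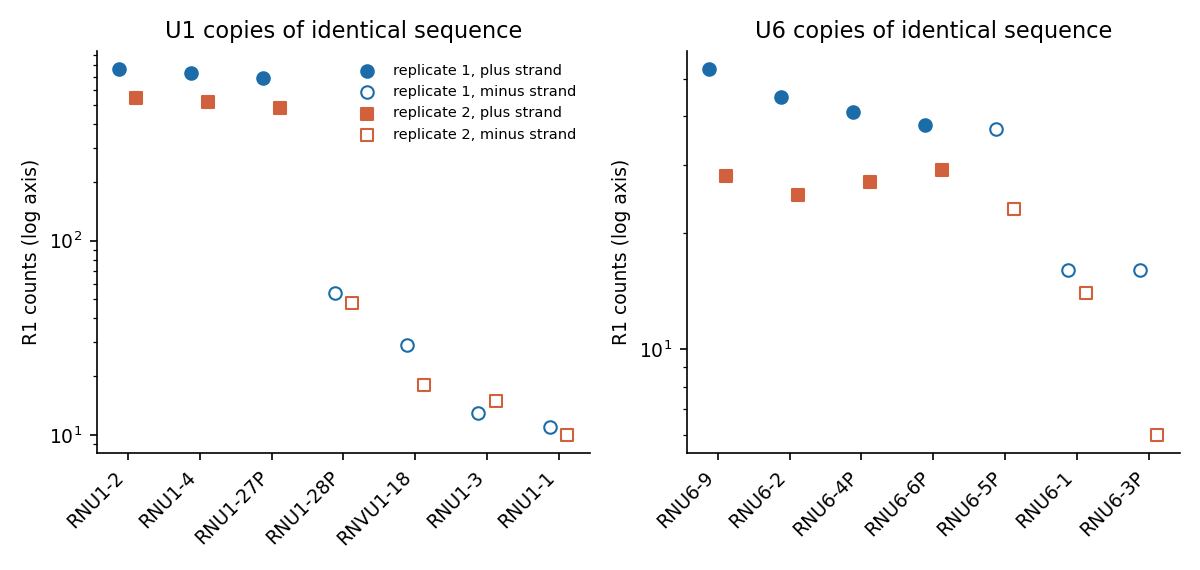
R1 counts (log axis) of the 7 U1 and 7 U6 features that share 1 sequence within each set, filled symbols for the plus strand of hg19 and open symbols for the minus strand, circles for replicate 1 and squares for replicate 2. The 3 plus-strand U1 features lie between 480 and 765 counts and the 4 minus-strand ones between 10 and 54, whereas RNU6-5P on the minus strand comes near the plus-strand U6 features.

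Wider groups differed in their strand balance. RNU1 features at least 95% identical to RNU1-2 held 96.2% and 95.4% of their counts on the plus strand, with 5 members there and 4 on the minus strand. RNU6 features at least 95% identical to RNU6-1 held 68.6% and 65.4% of their counts on the plus strand, with 21 members there and 23 on the minus strand. Over all snRNA features without RN7SK the plus strand held 40.9% and 39.4%, with RNU2-2P and RNU2-59P on the minus strand. All features other than piRNA held 58.6% and 56.8% on the plus strand. Strand was looked at after the counts were seen, how reads with several matches were placed is not given in the sources used here, and its part in these splits was not tested.

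U2 pairs with the branch point, and its family held the most counts of the named families, with 5665 and 4065 counts (200.2 ± 3.94 CPM, SD, n = 2). RNU2-2P had 3519 and 2472 counts, or 123 ± 4.27 CPM, and RNU2-59P 1483 and 1101, or 53.3 ± 0.235 CPM. The ratio of RNU2-2P to RNU2-59P was 2.37 in replicate 1 and 2.25 in replicate 2, and 4.92 and 4.34 in the R2 tables. The 68 other RNU2 features summed to 663 and 492 counts, led by RNU2-3P with 140 and 83 and RNU2-70P with 108 and 75. The family's rank rests on RNU2-2P and RNU2-59P, which both lie inside longer genes. Without members inside genes RNU2 made up 1.67% of snRNA counts, against 8.32% for RNU1, 5.86% for RNU4, 5.57% for RNU6 and 3.96% for RNU5. All 70 RNU2 features of the snRNA class are copies by name, so RNU2-1 is not among them and was not analysed here. By name RNU2-2P is a copy, but RefSeq gives that name as a synonym of RNU2-2 and classes it as snRNA. With RNU2-2P counted as a gene, copies held 42.5% ± 1.46 of the counts without RN7SK, against 71.3% ± 2.28 by the names.

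U4 keeps U6 inactive until the spliceosome is activated. RNU4 held 949 and 601 counts, or 31.6 ± 3.41 CPM (SD, n = 2). RNU4-2 had 381 and 214 counts and RNU4-1 208 and 118. Their ratio was 1.83 in replicate 1 and 1.81 in replicate 2, so the 2 U4 genes, told apart by 4 bases, kept nearly the same proportion in R1. In the R2 tables, with fewer counts, it was 2.19 and 1.57. Copies held 41.3% ± 4.83 of the family's counts. Of the 29 RNU4 features less than 70% identical to RNU4-2, 6 passed the minimum, led by RNU4-82P with 79 and 60 counts (66.5% identity) and RNU4-91P with 52 and 39 (66.5% identity). All 6 lie inside a longer gene, and whether their counts come from U4-like RNA or from that gene was not tested. Of the RNU1, RNU2 and RNU6 features with a sequence below 70% identity to their reference, 0 passed the minimum.

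U5 aligns the exon ends, and RNU5 differed most between the replicates, with 1133 and 429 counts, or 40.6 and 20.8 CPM. RNU5B-1 had 426 and 83 counts, or 15.3 and 4.03 CPM. RNU5A-1 had 283 and 130 counts, or 10.1 and 6.31 CPM. Of these 2 genes RNU5B-1 was the higher in replicate 1 and RNU5A-1 in replicate 2, with a ratio of RNU5B-1 to RNU5A-1 of 1.51 and 0.638, and of 1.44 and 0.688 in the R2 tables. The copy RNU5E-6P had 212 and 88 counts, and RNU5F-1 had 73 and 34, RNU5D-1 31 and 20, and RNU5E-1 13 and 20. RNU5E-1 was thus the 1 RNU5 gene whose count was higher in replicate 2. Without RNU5B-1 the family still stood at 25.3 CPM in replicate 1 and 16.8 CPM in replicate 2.

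Minor spliceosome RNAs in the snRNA class had low counts. RNU6ATAC had 30 and 15 counts and its copy RNU6ATAC28P 47 and 38, in a family of 164 and 110 counts of which 84.0% lay in copies. RNU4ATAC had 23 and 18 counts and was the only 1 of its 18 family members past the minimum. The 4 RNU11 copies held 1 and 0 counts and the RNU12 copy 0 and 1. The RNU11 and RNU12 genes themselves are listed as lincRNA and so fall outside the snRNA class, and RNU11 held 278 and 179 counts there, or 71.2 ± 6.84 CPM per kilobase (SD, n = 2). RNU12, inside a listed feature of 664 bases, held 91 and 95. U7 was carried by RNU7-1, with 53 and 30 counts of the family's 67 and 47, and 157 of the 179 RNU7 features had no count.

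Closeness of a copy to its family's gene went with having a count. Of the RNU6 features, 12 of 76 (15.8%) under 70% identity with RNU6-1 had an R1 count, as had 66 of 430 (15.3%) from 70 to 80% and 133 of 614 (21.7%) from 80 to 90%. From 90 to 95% it was 46 of 74 (62.2%), and from 95 to under 100% it was 36 of 37 (97.3%). RNU1 showed a like step: 22 of 51 features (43.1%) from 80 to 90% identity with RNU1-2 had a count, and 10 of 10 from 90 to 95%. RNU2 was different below that step, with a count in 22 of 30 features (73.3%) under 70% identity with RNU2-2P, though with 10 counts at most over both libraries. RNU7 copies had few counts at any identity, with 9 of 65 (13.8%) from 80 to 90% and 0 of 3 from 90 to 95%. Copies near a gene in sequence can share its reads, and this is a description with no test.

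**Figure D3:**
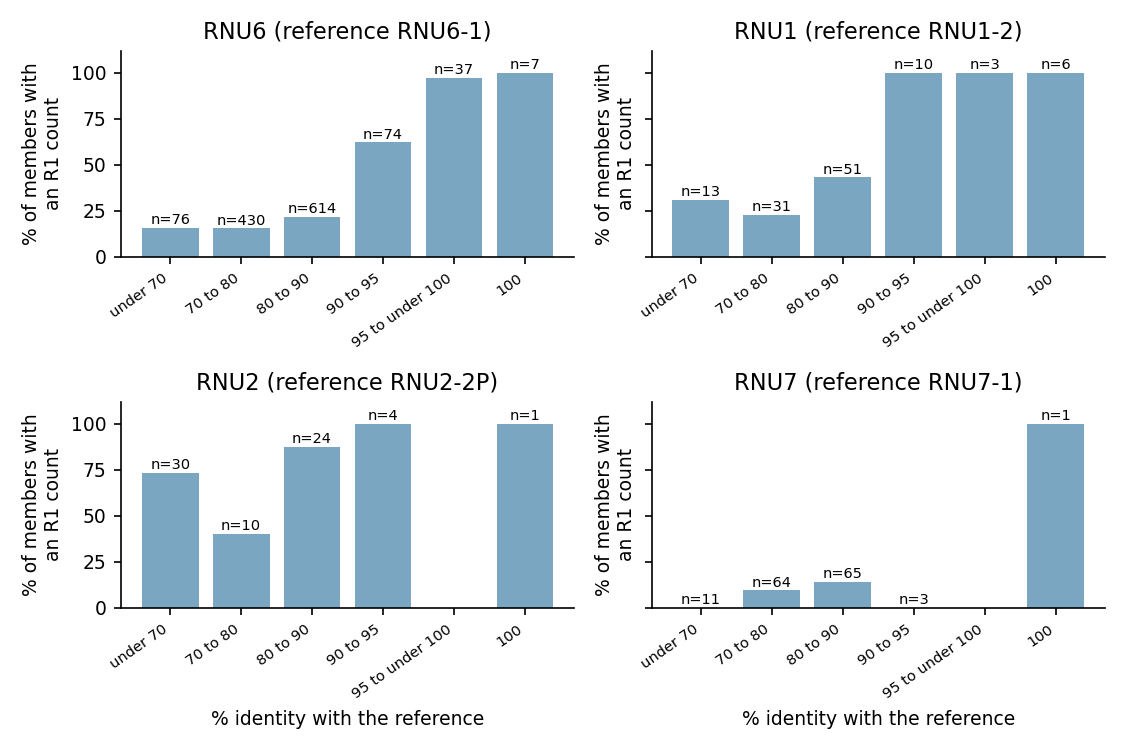
Percent of the members of 4 families that had at least 1 R1 count in either library, by percent identity with the family's reference feature, with the number of members above each bar. In RNU6 and RNU1 the bars rise at 90% identity, from 21.7% to 62.2% and from 43.1% to 100%.

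The bases by which U1 and U2 pair with introns were searched on the RNA strand only, so overlaps on the other strand do not enter. ACTTACCTG of U1 was found in 33 of 114 RNU1 sequences and in 7 of 1658 other snRNA sequences (0.422%), all 7 of them among the 11 RNVU1 sequences. The 33 held 91.2% and 91.1% of the RNU1 counts, most of it in the 6 RNU1 members of the identical set, which had 2262 and 1614 counts. Having a count was less marked: 17 of the 33 (51.5%) had one against 35 of the 81 without the motif (43.2%), and 8 against 5 passed the minimum. GTAGTA of U2 was found in 34 of 69 RNU2 sequences and in 0.763% of 1703 others. The 34 held 93.4% and 93.3% of the RNU2 counts, RNU2-2P and RNU2-59P most of it, and 8 of them passed the minimum against 6 of the 35 without the motif. The motif is part of the sequence that identity measures, so the motif counts and the identity steps are not separate observations.

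The 2 mates did not weigh the features alike. Over all features, R2 counts amounted to 40.3% of R1 counts in replicate 1 and to 42.7% in replicate 2. RNU1 (38.8% and 41.2%), RNU2 (40.1% and 41.9%) and RNU6 (39.9% and 45%) lay near these values as sums. Within RNU2, RNU2-2P stood at 47.6% and 46.4%, RNU2-59P at 22.9% and 24.0%, and the 68 other features as a sum at 38.9% and 59.6%. The median RNU2 feature past the minimum was at 21.6% and 20.3%, and the highest, RNU2-3P, at 84.3% and 155%. The median RNU6 feature past the minimum was at 26.5% and 33.3%, with 19 of 29 below the library's value in both replicates. As sums RNU4 lay lower, at 23.0% and 24.0%, and RNU5 lowest, at 10.9% and 14.2%. All 8 RNU5 features past the minimum lay below the library's value in both replicates, with a range of 5.56% to 22.6% in replicate 1 and 6.25% to 30% in replicate 2, as did 9 of 10 RNU4, 9 of 14 RNU2 and 4 of 13 RNU1 features. RNVU1-13 went the other way, with 147 and 92 R2 counts against 95 and 61 R1 counts, and RN7SK stood at 85.1% and 90.1%. In 4 features past the minimum the R2 tables held no count: RNU4-46P (51 and 30 R1 counts), RNU2-37P (41 and 27), RNU6-73P (24 and 11) and RNU6-40P (14 and 8).

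**Figure D4:**
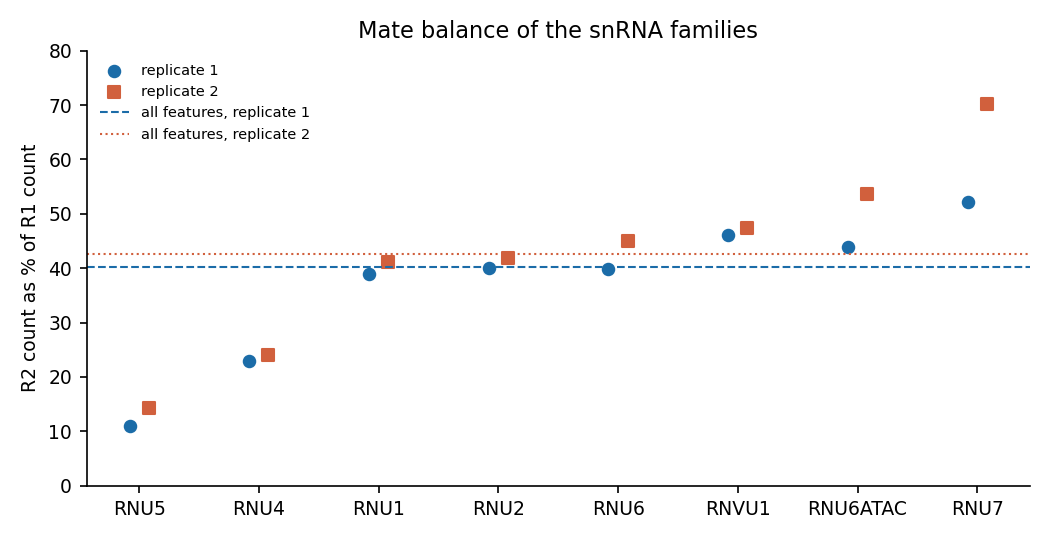
R2 count as a percent of the R1 count for 8 snRNA groups, circles for replicate 1 and squares for replicate 2, with lines at the value over all features (40.3% and 42.7%). RNU5 and RNU4 lie below the lines in both replicates, and RNVU1, RNU6ATAC and RNU7 lie above them, RNU7 with 67 and 47 R1 counts only.

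With 1 group there is no comparison of conditions, and the 2 libraries were set against each other feature by feature. The test is an exact binomial test of each count at the ratio of scaled library sizes, with Benjamini-Hochberg adjustment over 18723 features past the minimum. It compares these libraries, covers counting error only, and treats any other spread between libraries as a difference. With TMM scaling, which sets the median feature near 0, 55 of the 90 snRNA features (61.1%) were lower in replicate 2, against 6.52% of all features, and 0 were higher, against 2.29%. Their median log2 ratio of replicate 2 over replicate 1 was -1.29, against -0.003 over all features. With total counts as the scale, 8 of 90 (8.89%) were lower against 1.44% of all features, 2 were higher (RN7SK and RNU2-68P) against 81.3%, and the median was -0.19 against 1.09. The 2 scales are 1.09 apart on the log2 scale, so the direction of most features rests on the scale. The median snRNA lay below the median feature, and this distance is 1 observation, because a change of scale moves all features alike.

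RNU5 and RNU4 held most of the features that were called lower on both scales. RNU6-36P, at log2 ratios of -1.62 with TMM scaling and -0.53 with total counts, was called lower on both too. So was the copy with the bare name U4 (36 and 9 counts), at -2.60 and -1.50. Of the 8 tested RNU5 features 7 were lower in replicate 2 with TMM scaling and 4 with total counts, where the family's median log2 ratio was -0.64. Of the 10 tested RNU4 features 7 were lower with TMM scaling and 2, RNU4-2 and RNU4-1, with total counts, where the median was -0.23. RNU5B-1 had a log2 ratio of -3.01 with TMM scaling (adjusted p = 1.6e-94, exact binomial test) and -1.91 with total counts (adjusted p = 6.0e-35, exact binomial test). RNU5A-1 had -1.77 and -0.68, RNU4-2 -1.48 and -0.39, and RNU4-1 -1.47 and -0.38. RNU2-2P, RNU2-59P and RNU1-2 were called lower with TMM scaling, at -1.16, -1.08 and -1.14, and were not called with total counts. RN7SK turned: it was called lower with TMM scaling at -0.17 and higher with total counts at 0.93.

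**Figure D5:**
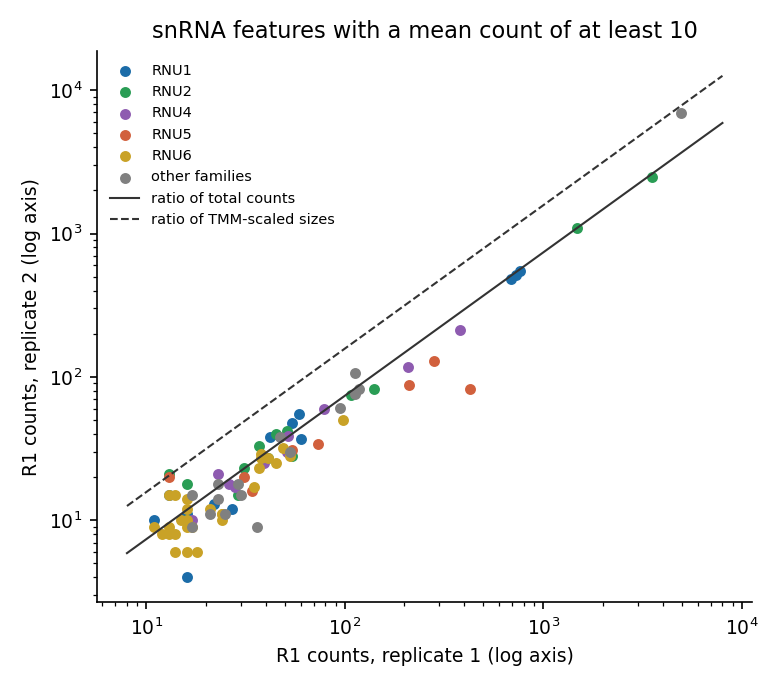
R1 counts of the 90 snRNA features past the minimum, replicate 1 against replicate 2, on log axes, coloured by family, with lines for the ratio of total counts and of TMM-scaled library sizes. Most features follow the line of total counts and lie below the TMM line, RNU5B-1 (426 and 83) lies below both, and RN7SK (4975 and 6977) lies near the TMM line.

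Many snRNA features lie inside longer genes. The 2 listings of RN7SK, which overlap on the same strand, had the same counts in all 4 count tables. Whether a member and a longer gene around it count the same reads was not tested. Of the members without RN7SK, 1069 lay inside a protein-coding or long non-coding gene on either strand, 33.2% of them with a count, against 23.0% of the 843 outside. Those inside held 72.3% and 74.9% of the counts (9005 and 6295). More than any others, 2 of them made up this share: RNU2-2P with 3519 and 2472 counts and RNU2-59P with 1483 and 1101. RNU2-2P lies on the strand of WDR74, which held 3555 and 2535 counts, and the member's count equals 99.0% and 97.5% of these. RNU2-59P lies within BTRC on the other strand, and BTRC held 1682 and 1415 counts. RNU5A-1 lies within PARP16 on the other strand, which held 307 and 185. In all 28 pairs of a member past the minimum and a gene on the other strand, the gene held at least the member's count in both libraries, as it did in all 29 pairs on the same strand. The count of RNU2-59P equals 88.2% and 77.8% of that of BTRC, and the count of RNU5A-1 92.2% and 70.3% of that of PARP16. No member overlapped a tRNA feature and 4 overlapped a piRNA, too few for a profile along the RNAs.

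The genes of snRNA particle proteins and of snRNA transcription, capping and assembly were low but nearly all detected. The last group is 26 of the 84 genes in 8 lists. Of the 84, 81 were listed and 80 had a mean count of at least 10, against 30.5% of all features other than piRNA. Their median was 3.11 CPM over their whole spans, and genes of like span were not compared. PRPF8, the U5 scaffold at the catalytic centre, had 972 and 1749 counts (59.9 ± 35.4 CPM, SD, n = 2) and SF3B3, a U2 particle protein, 486 and 939. SNRNP200, the helicase that unwinds U4 from U6, had 510 and 887, SF3B1, which holds the branch point, 402 and 636, and SNRPB, an Sm ring protein, 238 and 466. All 5 had a higher count in replicate 2, where the U1, U2, U4, U5 and U6 families had lower ones in a library of smaller total. LSM11, of the LSm proteins of U6 and U7, did not, with 53 and 51 counts. PRPF8 and SF3B3 were called higher with TMM scaling, at log2 ratios of 0.19 (adjusted p = 0.0119, exact binomial test) and 0.30 (adjusted p = 0.00394, exact binomial test). With TMM scaling 4 of the 80 were higher in replicate 2, against 2.29% of all features, and 1 was lower, against 6.52%, with a median log2 ratio of 0.16. With total counts 75 of the 80 were higher, against 81.3% of all features, and 0 were lower, against 1.44%, with a median of 1.25, against 1.09 over all features.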

How the data were processed

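CLIP-seq counts from MDA-MB-231 cells, 1 group with 2 replicates, were analysed. The values the authors deposited are raw counts of reads per feature, with no scaling, in 4 tables (1 per mate and library). The submitters' processing notes name Bowtie2 2.3.5.1, bedtools 2.24.0 and the hg19 (GRCh37) build. Neither the alignment options, nor the placing of reads with several matches, nor the use of strand is given in the sources used here. Near-identical copies can share reads. After 13 repeated lines were dropped, 741078 features remained.

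The members and lists were chosen with earlier results of these data known. CPM used the R1 total of each library, and depth (27907799 and 20590398 counts) sets 3 counts at 0.107 and 0.146 CPM. Identity came from global alignment (Biopython 1.88, match 1, mismatch -1, gap open -2, gap extension -0.5) as matches over aligned columns. Scale factors came from edgeR 4.0.16 (TMM) and DESeq2 1.42.0 in R 4.3.3, and the split between the libraries was tested by the exact two-sided binomial test at an adjusted 0.05 with a prior count of 0.5 in ratios (Python 3.11.15, scipy 1.17.1, numpy 2.4.6, pandas 2.3.3, matplotlib 3.10.9). On simulated data for replicate 2 over replicate 1 with 18723 features, it recovered 50% of 2-fold and 90% of 4-fold changes while 0.054% of the features left unchanged were called. Only counting error was simulated.

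Members were named by a rule: the genes past a mean of 10, the 3 highest of each family, the 15 highest copies, the 5 most extreme splits in each direction, the 5 most extreme mate ratios at a mean of at least 50, the 2 features on each side of the minimum and the 2 highest genes of each protein list. From these the text gives examples. RNU6-4P, RNU6-5P, RNU6-6P, RNVU1-18, RNU6-37P, RNU6-11P, RNU6-17P, RNU6-18P, RNU6-13P, RNU6-32P, RNU6-771P, RNU6-1072P, RNU4-46P, RNU2-37P, RNU6-73P, RNU6-40P, RNU2-68P, RNU11, RNU12, WDR74, BTRC and PARP16 fall outside it or were chosen after their values were seen. Alternatives were the R2 table, the sum of mates, each replicate left out, other minimums, scales and denominators, counts per kilobase and members inside genes left out. Leaving out RN7SK and counting RNU2-2P as a gene were added after the data were seen.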

Additional observations from a re-analysis of the deposited data

How the results depend on the processing

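Of 157 alternative values of the main results, 108 stayed within the limits set for no change (1 SD, or 1.5 times for a count) and 49 moved. The 108 include values that could not move: means with 1 replicate left out, and values without members overlapping a tRNA feature. All alternatives of the R2 to R1 ratios were of these 2 kinds, so the tally is no measure of stability. The snRNA share of the library (0.0686%) was 0.0937% in the R2 table, 0.0372% without members inside genes, 0.0427% without RN7SK and 0.119% of a total without its 10 highest features, and ranged from 0.0625% to 0.0747% with 1 replicate left out. In the R2 table, the shares of snRNA counts were 9.74% for RNU1, 21.8% for RNU2, 1.99% for RNU4, 1.03% for RNU5, 4.90% for RNU6, 0.0166% for RNU11, 0.0752% for RNU4ATAC and 59.3% for other, and with both mates summed 0.00773% for RNU11 and 0.123% for RNU4ATAC. Without members inside genes they were 8.32% for RNU1, 1.67% for RNU2, 5.86% for RNU4, 0.0229% for RNU7, 0.0284% for RNU4ATAC, 1.28% for RNU6ATAC and 73.3% for other. Without RN7SK they were 21.5% for RNU1, 46.9% for RNU2, 7.38% for RNU4, 10.2% for RNU6, 0.548% for RNU7, 0.243% for RNU4ATAC, 1.31% for RNU6ATAC and 4.80% for other. Per kilobase they were 15.9% for RNU1, 6.43% for RNU4, 7.59% for RNU5, 11.8% for RNU6, 1.06% for RNU7, 0.234% for RNU4ATAC, 1.31% for RNU6ATAC and 25.8% for other. With 1 replicate left out the shares ranged from 12.1% to 14.9% for RNU1, 26.4% to 32.5% for RNU2, 3.91% to 5.44% for RNU4, 2.79% to 6.50% for RNU5, 5.58% to 7.29% for RNU6 and 31.9% to 48.0% for other. Copies held 44.8% of snRNA counts, and 32.4% in the R2 table, 16.1% without members inside genes, 71.3% without RN7SK, 53.3% per kilobase, 26.7% with RNU2-2P as a gene, and 39.8% to 49.8% with 1 replicate left out.

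The number of members past the minimum (90) was 332 at a minimum of 1, 22 at 50, 550 with any count, 37 in the R2 table, and 79 to 99 with 1 replicate left out. Members lower in replicate 2 (55 of 90, against 1220 of 18723 features) numbered 8 of 90 with total counts, against 270 of 18723. In the R2 table they numbered 14 of 37, against 877 of 17753. Members higher (0 of 90, against 428 of 18723) numbered 2 of 90 with total counts, against 15221 of 18723. The number of genes of the 8 protein lists past the minimum was 80. The cause of these moves was not tested, except that fewer features enter at a higher minimum or in the thinner R2 table. With 2 replicates, each single value lies within 1 SD of their mean by construction, so leaving out a replicate is no check of a mean. No member overlapped a tRNA feature, so leaving such members out changed nothing. Among alternative CPM values of the 54 named members, 155 were equal or within 1 SD and 61 moved, in the R2 table (28 lower, 14 higher) or the sum of mates (12 lower, 7 higher). The 155 include the values with 1 replicate left out, which could not move. No paired analysis was possible because there is 1 group. Of the 1872 copies, 1358 had no R1 count and 345 had 1 to 3 over both libraries. Whether depth limits these copies was not tested.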
